A study of Mus musculus with 2 samples.

Results

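The Serpina1 paralogs are the 5 mouse genes Serpina1a, Serpina1b, Serpina1c, Serpina1d and Serpina1e, which encode alpha-1 antitrypsin. They were taken by symbol from the gene list of the count tables, and all 5 of the 5 were found among 19465 genes. RNA was counted on 1 liver section from an AEG-1-WT mouse and 1 from an AEG-1-C75S mouse, both naïve, untreated females of 8 weeks from the same lobe, born as littermates to heterozygous parents. In AEG-1-C75S, a knock-in made with CRISPR/Cas9, the cysteine of AEG-1 (gene Mtdh) that carries a palmitate is replaced by serine in every cell of the body, and in AEG-1-WT both alleles of Mtdh are wild type. The strain background and the hour of collection are not given in the sources used here. These genes were selected on their readout in the same sections, since Serpina1e had already been seen to be low in AEG-1-C75S, so the levels, shares and gradients that follow are a description and carry no test.

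Alpha-1 antitrypsin is made by hepatocytes, secreted into the blood in large amounts and known above all as the inhibitor of neutrophil elastase in the lung. It belongs to the serpins, which offer a flexible reactive centre loop to a protease as bait. The protease cuts the loop after the residue called P1, the serpin folds over it, and the enzyme is trapped. The identity of P1 largely sets which proteases are caught. Humans have a single such gene, SERPINA1, while mice carry a cluster of copies whose number differs between inbred strains.

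The stretch of each gene that encodes the loop holds the P1 codon and is therefore printed here. It comes from the RefSeq annotation of GRCm38.p6, which is the mm10 build of the count tables. All 5 genes lie on the minus strand of chromosome 12. Where a gene has several transcripts, the one with the shortest coding sequence was used, so that each has 413 codons before the stop. The 51 bases shown lie in the last of 5 exons. Each line reads 5′ to 3′ in the sense of the mRNA and starts at the hinge of the loop, with the P1 codon in capitals.
Serpina1a, chr12:103853780-103853830: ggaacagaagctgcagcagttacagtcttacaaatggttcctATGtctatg
Serpina1b, chr12:103728347-103728397: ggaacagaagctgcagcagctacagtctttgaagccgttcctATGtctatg
Serpina1c, chr12:103895117-103895167: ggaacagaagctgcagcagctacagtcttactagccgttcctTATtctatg
Serpina1d, chr12:103763785-103763835: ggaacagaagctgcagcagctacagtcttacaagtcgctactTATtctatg
Serpina1e, chr12:103947123-103947173: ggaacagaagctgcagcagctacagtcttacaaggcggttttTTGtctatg
The P1 codon was ATG, for methionine, in Serpina1a and Serpina1b. It was TAT, for tyrosine, in Serpina1c and Serpina1d, and TTG, for leucine, in Serpina1e alone. Any pair of the loops differed at 4 to 8 of the 51 bases. Over the whole coding sequence, pairs of paralogs were 96.3% to 98.5% identical, and Serpina1e was 96.3% to 96.5% identical to each of the others.

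In cluster order along the chromosome, Serpina1b (chr12:103728156-103738189), Serpina1d (chr12:103763587-103773633), Serpina1a (chr12:103853295-103863619), Serpina1c (chr12:103894926-103904950) and Serpina1e (chr12:103946931-103956897) span 228742 bases, and Serpina1e lies at one end. The start regions were alike as well. In RefSeq's table of promoters, which holds 250 bases before and 50 after the annotated start and matched all 5 genes, Serpina1e was 98.4% identical to Serpina1b over 248 aligned bases, its closest copy, and 95.2% to 96.2% identical to the other 3. The 150 bases before the annotated starts of this closest pair are shown on the minus strand, with matches to the motifs searched in capitals.
Serpina1b, chr12:103738190-103738339: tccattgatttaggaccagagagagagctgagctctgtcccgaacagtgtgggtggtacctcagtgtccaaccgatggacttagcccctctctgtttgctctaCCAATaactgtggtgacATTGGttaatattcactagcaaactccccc
Serpina1e, chr12:103956898-103957047: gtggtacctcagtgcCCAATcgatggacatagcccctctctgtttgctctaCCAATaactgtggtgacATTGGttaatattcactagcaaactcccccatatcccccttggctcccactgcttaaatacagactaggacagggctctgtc
CCAAT occurred 2 or 3 times in each paralog and in 37.4% of 32851 promoters of that length. The match nearest the annotated start began 82 bases before it in Serpina1e and 20 to 31 bases before it in the other 4, so the annotated starts are not aligned. CAAAGT, a core of HNF4 sites, was found in Serpina1a, Serpina1b and Serpina1d and in 14.4% of all promoters. In those paralogs it began 209 to 220 bases before the annotated start. The CCAAT nearest the start lies farther from it in Serpina1e, so a site at the matching place could lie beyond the 250 bases searched. The lack of a CAAAGT match in Serpina1e is therefore not read. TATAAA was found in no paralog and in 13.6% of all promoters. All motifs were searched on both strands.

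The Visium assay for fixed tissue counts ligated pairs of short probes by their unique molecular identifiers (UMIs), so a count of a paralog rests on where its probes sit. Of all 50-base windows of the mRNA, the share with at least 1 mismatch to every other paralog was 27.0% for Serpina1c, 40.8% for Serpina1a, 52.9% for Serpina1b, 53.6% for Serpina1d and 62.0% for Serpina1e. With at least 3 mismatches the shares were 6.47% to 20.5%, and 16.0% for Serpina1e. The probe sequences were not used here, so how counts are split between near-identical copies is uncertain, and the levels of different paralogs are not ranked against each other.

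A spot covers a small patch of tissue with several cells, and its counts are the sum over them, so fewer hepatocytes and less RNA per hepatocyte cannot be told apart. Spots with at most 50000 UMIs were kept, 2309 of 2316 in AEG-1-WT compared with 2163 of 2167 in AEG-1-C75S, with medians of 16830 and 18808 UMIs. The depth of the spots ranged more widely in AEG-1-C75S, where 90% of spots lay between 6599 and 33880 UMIs against 11460 and 29951. The capture areas use a common set of spot barcodes, and 1896 occur in both tables. The hepatocyte marker Alb was at 127352 counts per 1000000 UMIs of the kept spots (CPM) in AEG-1-WT against 120952 CPM in AEG-1-C75S. Mtdh was at 74.4 and 73.3 CPM, and where its probes lie relative to the edited codon was not checked. With 1 section per genotype there is no replicate and spots of a section are not replicates, so every ratio compares those libraries and not the genotypes. Intervals are exact 95% intervals that cover counting error only.

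Serpina1e was far lower in the AEG-1-C75S section, while the other paralogs were close to level or, for Serpina1c, moderately lower. For Serpina1e, whose P1 codon reads leucine, 53067 UMIs were counted in AEG-1-WT compared with 4837 in AEG-1-C75S. Its level was 1256 CPM (95% interval 1245 to 1267) in AEG-1-WT against 116 CPM (113 to 119) in AEG-1-C75S. This was 10.8-fold lower in AEG-1-C75S (10.5 to 11.1), a log2 ratio of -3.44 (-3.48 to -3.39). Among the 12004 genes with 50 UMIs or more in the pair of sections, 2 had a lower log2 ratio, Fmr1nb with 289 and 5 UMIs and the ubiquitin protease Usp2 at -3.45. The other 4 paralogs gave log2 ratios between -0.44 and 0.04, beside a median of -0.05 over all genes.

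Serpina1c, with a tyrosine codon at P1, was at 2901 CPM (2885 to 2918) in AEG-1-WT compared with 2142 CPM (2128 to 2156) in AEG-1-C75S. The log2 ratio was -0.44 (-0.45 to -0.43), and 8.72% of all genes had a lower one. Serpina1d, the other tyrosine copy, was at 2252 CPM in AEG-1-WT against 2167 CPM in AEG-1-C75S, a log2 ratio of -0.06 (-0.07 to -0.04) that is close to the median gene. The copies with methionine at P1 also lay near it. Serpina1a was at 3031 and 2878 CPM, with a log2 ratio of -0.07 (-0.09 to -0.06). Serpina1b was the only paralog with a higher level in AEG-1-C75S, at 3352 CPM in AEG-1-WT and 3452 CPM in the mutant section, a log2 ratio of 0.04 (0.03 to 0.05). The small ratios of Serpina1a, Serpina1b and Serpina1d are within 0.1 of the median gene. That of Serpina1d turned to 0.000711 with TMM factors, a scaling by a trimmed mean of log ratios over genes.

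**Figure D1:**
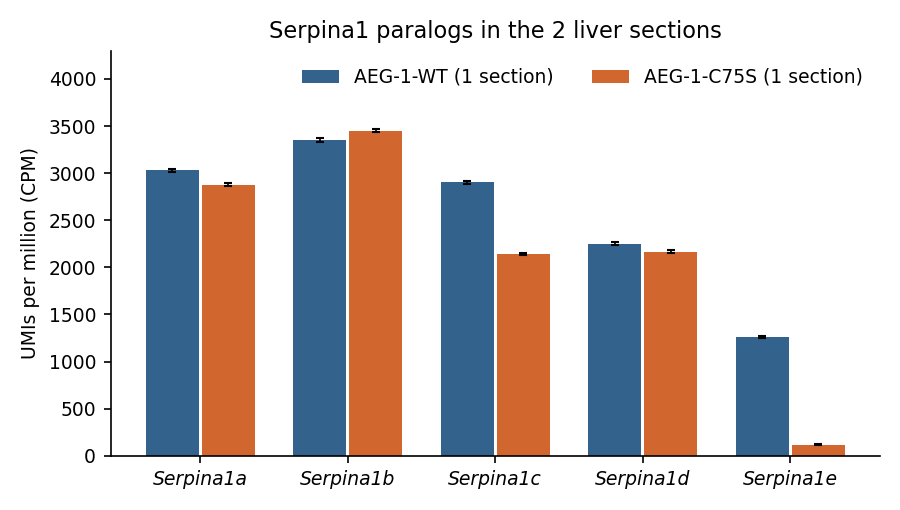
Counts per 1000000 UMIs (CPM) of each Serpina1 paralog in the AEG-1-WT section (blue) and the AEG-1-C75S section (orange), with bars starting at 0 and black 95% intervals of the counts. The bars of Serpina1e stand at 1256 and 116 CPM, those of Serpina1c at 2901 and 2142 CPM, and the other 3 pairs are nearly level.

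Of the 5 paralogs, 1 was at least 2-fold lower in AEG-1-C75S, which is 1.42% among all genes tested (170 of 12004); the genes were selected on this contrast, so nothing is read from the count. The sum of the paralogs was 12792 CPM (12758 to 12826) in AEG-1-WT, or 1.28% of all UMIs, and 10755 CPM (10723 to 10786) in AEG-1-C75S, a log2 ratio of -0.25 (-0.26 to -0.24). Without Serpina1e the sums were 11536 and 10639 CPM, and the log2 ratio was -0.12 (-0.12 to -0.11). Serpina1e was 1140 CPM lower in the AEG-1-C75S section and the other 4 paralogs together 897 CPM lower, Serpina1c alone by 760 CPM.

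The share of a paralog in the family sum does not depend on how the sections are scaled. Serpina1e made up 9.82% of the family's UMIs in AEG-1-WT (9.74 to 9.90) compared with 1.08% in AEG-1-C75S (1.05 to 1.11). The share of Serpina1b was 26.2% in AEG-1-WT against 32.1% in AEG-1-C75S, that of Serpina1a 23.7% and 26.8%, and that of Serpina1d 17.6% and 20.1%. The share of Serpina1c went the other way, from 22.7% to 19.9%. Grouped by the P1 codon, the methionine pair held 49.9% of the UMIs in AEG-1-WT compared with 58.9% in AEG-1-C75S, and the tyrosine pair 40.3% and 40.1%. The shares add up to the whole, so a lower share of Serpina1e raises those of the others even at the same level. In CPM, Serpina1a and Serpina1b had log2 ratios of -0.07 and 0.04, and Serpina1c and Serpina1d of -0.44 and -0.06. The shares of the pairs are therefore not read as changes in their level. Relative to the UMIs of the other 4 paralogs, Serpina1e stood at 10.9% in AEG-1-WT against 1.09% in AEG-1-C75S (1.06 to 1.12). Whether the near-identical copies add to the counts of Serpina1e, or Serpina1e to those of Serpina1c and the other copies, was not tested.

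The levels were then followed from portal to central tissue. Blood enters the liver lobule at the portal tracts and leaves at the central vein, and hepatocytes express different genes along the way. The spots of each section were ranked by (Cyp2f2 + 1)/(Cyp2e1 + 1), a ratio of UMIs of a portal and a central cytochrome P450, and cut into 5 bins of equal size. In AEG-1-WT, Cyp2f2 went from 2444 CPM in the first, most portal bin to 370 CPM in the last, most central one, and Cyp2e1 from 2154 to 13180 CPM. The same genes went from 2773 to 569 CPM and from 2300 to 12018 CPM in AEG-1-C75S. The bins were cut within each section, so their limits differ. The last bin held ratios up to 0.061 in AEG-1-WT compared with 0.086 in AEG-1-C75S. A bin of the same number is thus not exactly the same zone in both sections.

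Serpina1e had the steepest gradient of the family, with its higher levels toward the portal end in both sections. In AEG-1-WT its level over the bins was 1639, 1517, 1271, 1029 and 819 CPM from portal to central. Each value was below the one before it, and no pair of neighbouring intervals overlapped. The first bin was 2.0-fold above the last (1.94 to 2.06), a log2 ratio of 1.0, and 1.53% of 9935 genes had a steeper rise toward the portal end. In AEG-1-C75S the levels were 140, 144, 111, 101 and 83.5 CPM. Here the intervals of bins 1 and 2 overlapped, as did those of bins 3 and 4, and the first was 1.68-fold above the last (1.53 to 1.85), a log2 ratio of 0.75. In AEG-1-C75S, 1.62% of 9926 genes had a steeper portal rise.

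The gradient of Serpina1e therefore ran the same way in both sections. The log2 ratio of the first over the last bin was 0.25 larger in AEG-1-WT (counting interval 0.11 to 0.40), and with bins cut on 7 other zone markers it was 0.90 in AEG-1-WT compared with 0.59 in AEG-1-C75S, a difference of 0.30 (0.16 to 0.44). The size of the difference depended on the setting. It was 0.54 (0.33 to 0.76) with 10 bins, 0.18 (0.08 to 0.29) with 3 bins and 0.15 (-0.01 to 0.31) with bins cut over both sections together. With 3000 UMIs drawn per spot the gradients were 0.91 and 0.88, a difference of 0.03 (-0.35 to 0.40). That draw left 739 Serpina1e UMIs in AEG-1-C75S, and its wide interval holds 0.25 as well as 0. It cannot tell whether the difference remains at equal depth. The counting intervals with common bins and with drawn UMIs both include 0. The level was 11.7-, 10.5-, 11.5-, 10.2- and 9.82-fold lower in AEG-1-C75S in the 5 bins from portal to central. The fold in the first bin (log2 -3.64 to -3.46) did not overlap in its interval with that in the last (-3.41 to -3.18). This restates the difference of 0.25 with bins cut within each section and adds nothing to it. In AEG-1-C75S, Serpina1e stood at 1.09% of the UMIs of the other 4 paralogs, whose summed gradient was 1.11-fold. A small part of their UMIs counted as Serpina1e would flatten its gradient there, and this was not tested.

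**Figure D2:**
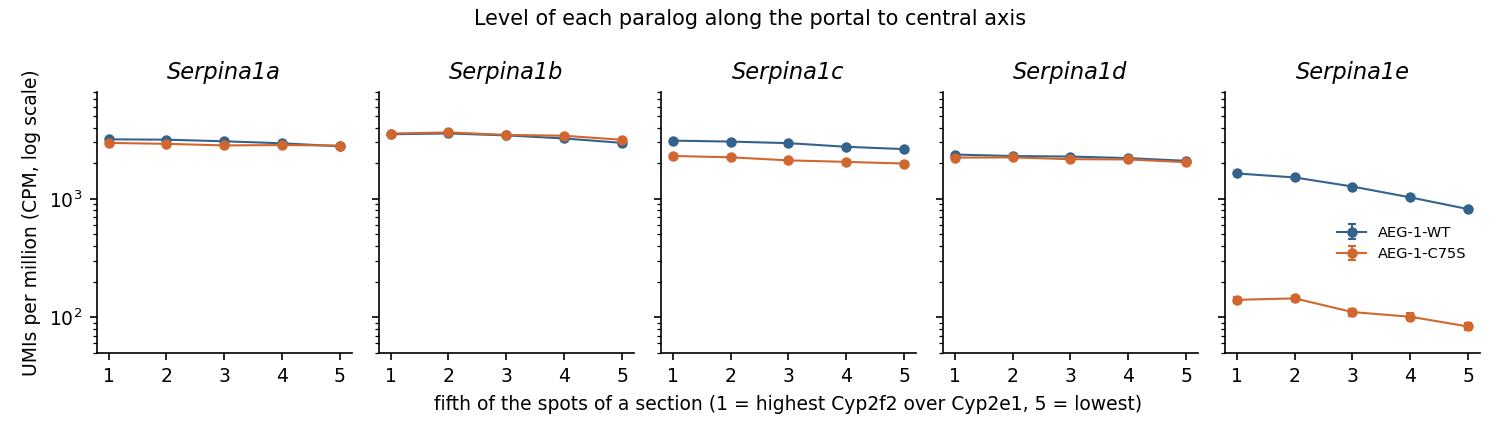
CPM (log scale) of each paralog in 5 bins of the spots of each section, from the most portal (1) to the most central (5), in AEG-1-WT (blue) and AEG-1-C75S (orange), with 95% counting intervals. Serpina1e goes from 1639 to 819 CPM and from 140 to 83.5 CPM, while the lines of the other 4 paralogs are nearly flat.

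The other paralogs had shallow gradients of the same direction. In AEG-1-WT the first bin was 1.13-fold (Serpina1d) to 1.18-fold (Serpina1b) above the last, with log2 ratios of 0.18 for Serpina1d, 0.20 for Serpina1a, 0.24 for Serpina1c and 0.24 for Serpina1b. In AEG-1-C75S they were 0.07 for Serpina1a, 0.13 for Serpina1d, 0.18 for Serpina1b and 0.21 for Serpina1c. Of the 5 paralogs, 1 was at least 1.5-fold higher in the first bin of AEG-1-WT, as were 3.93% of all genes tested, and 1 in AEG-1-C75S, as were 2.73%, and again these values chose the family. The median gene had a log2 ratio of -0.12 in AEG-1-WT against -0.10 in AEG-1-C75S. For the family sum the levels were 13815 CPM in the first and 11303 CPM in the last bin of AEG-1-WT, a log2 ratio of 0.29 (0.28 to 0.30), and 11215 and 10092 CPM in AEG-1-C75S, a ratio of 0.15 (0.14 to 0.17).

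Serpina1c was lower in AEG-1-C75S by a like amount all along the axis. Its log2 ratio between the sections was -0.43, -0.44, -0.48, -0.42 and -0.40 from the first to the last bin. That of Serpina1a was -0.10 in the first bin and 0.02 in the last, where its interval (-0.01 to 0.05) included 0. That of Serpina1b was 0.02 in the first and 0.09 in the last, and that of Serpina1d between -0.09 and -0.04.

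The composition of the family changed along the lobule in AEG-1-WT, and mainly through Serpina1e. Its share was 11.9%, 11.2%, 9.77%, 8.45% and 7.25% from the first to the last bin of AEG-1-WT, and 1.25%, 1.29%, 1.03%, 0.954% and 0.827% in AEG-1-C75S. The share of Serpina1a went from 23.1% to 24.6% over the bins of AEG-1-WT and from 26.5% to 28.0% in AEG-1-C75S. That of Serpina1b was 25.5% in the first and 26.3% in the last bin of AEG-1-WT, and 31.8% and 31.3% in AEG-1-C75S. Serpina1c and Serpina1d each moved by less than 1.5 percentage points from the first to the last bin in either section.

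Single spots showed the same contrast. A spot of AEG-1-WT held a median of 20 Serpina1e UMIs, with 90% of spots between 7 and 47.6, and a spot of AEG-1-C75S held a median of 2, with 90% of spots between 0 and 6. At least 1 Serpina1e UMI was found on 2307 of 2309 spots (99.9%) in AEG-1-WT and on 1689 of 2163 (78.1%, interval 76.3 to 79.8) in AEG-1-C75S. With 3000 UMIs drawn from every spot, and 4 and 3 spots dropped as too shallow, the shares were 95.2% and 28.1%. The other 4 paralogs were found on 99.8% to 100% of the thinned spots of either section. Of the kept spots, 474 in AEG-1-C75S had no Serpina1e UMI, against 2 in AEG-1-WT. No cell type without the gene is set apart on spots, so a background share from free RNA could not be measured.

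The share of Serpina1e in the family on a spot had a median of 9.07% in AEG-1-WT, with a 5th percentile of 4.13%, a 95th of 16.8% and a highest value of 36.7%. In AEG-1-C75S the median was 0.917% and the highest value 5.86%. None of the 2163 spots of AEG-1-C75S reached the median of AEG-1-WT, and 15 lay above its 5th percentile. Over spots of AEG-1-WT, the variance of the Serpina1e share was 4.22 times what binomial counting gives, and 3.38 times within bins of the axis. For the other 4 paralogs it was 1.13 to 1.24 times in AEG-1-WT compared with 1.07 to 1.17 times in AEG-1-C75S, and for Serpina1e in AEG-1-C75S, where few UMIs are counted per spot, 1.38 times. Serpina1e was thus the paralog whose part in the family varied most from spot to spot in AEG-1-WT, and only part of that variation lay between bins.

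**Figure D3:**
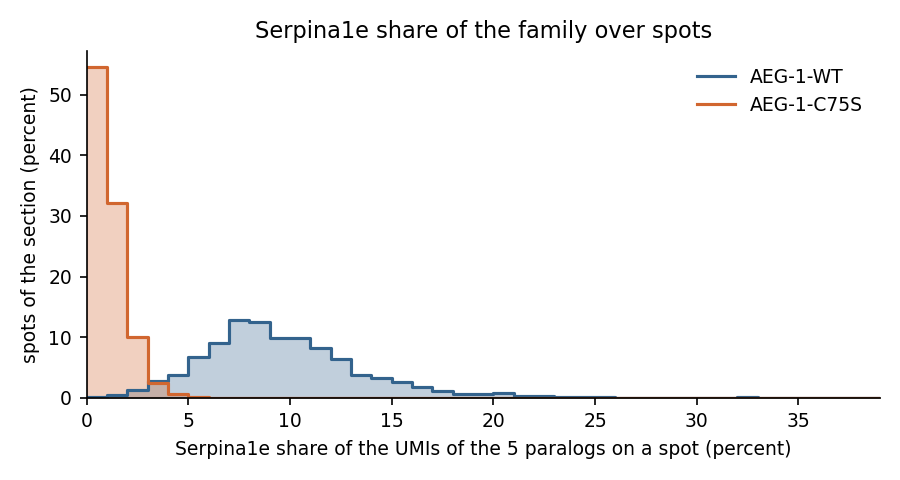
Share of the 5 paralogs' UMIs on a spot that is Serpina1e (x axis, percent, in steps of 1) against the percent of the spots of the section (y axis), for AEG-1-WT (blue) and AEG-1-C75S (orange). The medians are 9.07% and 0.917%, and the AEG-1-WT spots have a tail that runs past 20%.

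The tail of high shares lay at the portal end. In AEG-1-WT, 50 spots had a share above 20%, and by bin from portal to central they numbered 33, 13, 3, 1 and 0. They held a median of 16231 UMIs and 245 UMIs of the family, close to the medians over all spots, 16830 and 218. In the 10% of spots of each section with most RNA of Spp1, Epcam, Mgp, Dpt and Col1a1, genes of bile ducts and portal connective tissue, Serpina1e made up 12.2% of the family in AEG-1-WT against 9.53% on the other spots. In AEG-1-C75S the values were 1.32% and 1.06%. The sum of those 5 genes was 1088 CPM on these spots and 71.4 CPM on the others in AEG-1-WT, and 673 and 57.2 CPM in AEG-1-C75S. By depth, the share was 9.54% (9.42 to 9.66), 10.1% (9.95 to 10.2) and 9.99% in the deepest, middle and shallowest of 3 equal groups of AEG-1-WT spots. In those of AEG-1-C75S it was 1.15% (1.11 to 1.20), 0.987% (0.938 to 1.04) and 1.04%. The deepest group thus had the lowest share in AEG-1-WT and the highest in AEG-1-C75S. Its interval did not overlap that of the middle group in either section. Across spots, the CPM of any pair of paralogs correlated at r = 0.13 to 0.32 in AEG-1-WT against 0.04 to 0.27 in AEG-1-C75S (2309 and 2163 spots, which share a library and few UMIs per gene), as a description only.

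No gene next to the cluster had a log2 ratio as low as that of Serpina1e. Within 1 Mb on either side, 23 other protein-coding genes had at least 50 UMIs, and their log2 ratios ran from -0.71 to 1.01 with a median of -0.10. None was at least 2-fold lower in AEG-1-C75S, beside 1.42% of all genes tested, so nothing is read from that count. At least 2-fold higher was 1 gene, Serpina3f, at 1.01 (0.76 to 1.26) with 197 and 391 UMIs. The share of all genes past that fold was not counted, so nothing is read from this count either. Of the 23 genes, 13 had a log2 ratio below 0. The lower 5% of all genes ended at a log2 ratio of -0.60, and the upper 5% began at 0.40. The nearest neighbour beyond Serpina1e is Serpina11, 23346 bases away, at 58.5 CPM in AEG-1-WT compared with 63.2 CPM in AEG-1-C75S, a log2 ratio of 0.11 (0.03 to 0.19). At the other end the nearest is Serpina1f, 32627 bases from Serpina1b and closest in name, with 1 UMI in AEG-1-WT against 0 in AEG-1-C75S. The next with enough UMIs is Serpina6, the corticosteroid-binding globulin, at 402 and 269 CPM with a log2 ratio of -0.58 (-0.62 to -0.55). Serpina10 lies beyond it, at 217 and 172 CPM with a log2 ratio of -0.33 (-0.38 to -0.29). Beside Serpina3f, the neighbours that differed at least 1.5-fold were Ppp4r4 and Serpina3g. Ppp4r4, a phosphatase subunit, was at -0.71 (-0.99 to -0.43) with 290 and 175 UMIs, and Serpina3g at 0.80 (0.69 to 0.91).

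**Figure D4:**
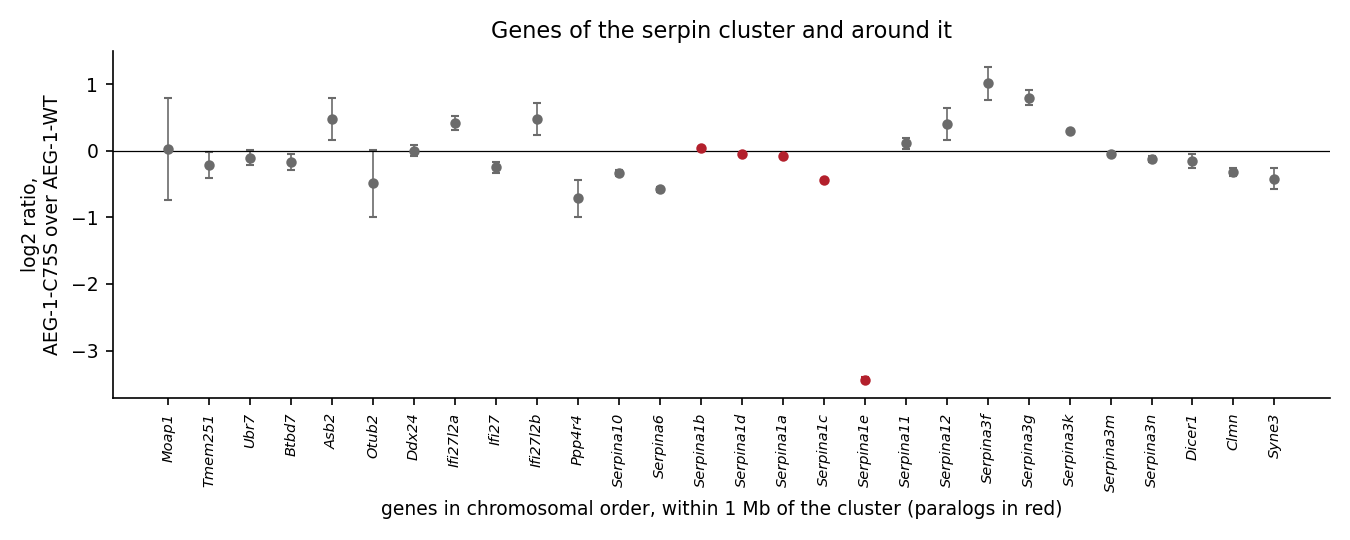
Log2 ratio between the sections, AEG-1-C75S against AEG-1-WT (y axis), of the genes with at least 50 UMIs within 1 Mb of the cluster, in chromosomal order (x axis), with 95% counting intervals and the 5 paralogs in red. Serpina1e lies at -3.44, and the 23 other genes lie between -0.71 and 1.01.

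The lists of related genes set the family in its surroundings. Of all genes tested, 1.42% were at least 2-fold lower in AEG-1-C75S. The share at least 2-fold higher was not counted, but the upper 5% of all genes began at a log2 ratio of 0.40. Nothing is read from the small counts of the lists. Of the 15 other liver serpins, 14 had at least 50 UMIs, 0 were at least 2-fold lower in AEG-1-C75S and 1 was at least 2-fold higher, and the median log2 ratio was -0.03. That 1 was Serpina7, the thyroxine-binding globulin, at 27.6 CPM in AEG-1-WT compared with 82.8 CPM in AEG-1-C75S (log2 1.59, 1.49 to 1.68). The most abundant of the list were Serpina3k, at 6576 and 8111 CPM (log2 0.30), Serpinc1, which encodes antithrombin, at 5423 and 5671 CPM (0.06), and Serpinf2, the plasmin inhibitor alpha-2-antiplasmin, at 1243 and 1205 CPM (-0.05).

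Of these serpins, Serpina7 and Serpina12 had gradients farther from 0 than Serpina1e in both sections. Serpina12, known as vaspin, was higher toward the portal end, at 12.6 CPM in the first and 2.52 CPM in the last bin of AEG-1-WT and 13.5 and 5.13 CPM in AEG-1-C75S, with only 255 and 332 UMIs in the sections. Serpina6 and Serpina7 were higher toward the central end, with log2 ratios of the first over the last bin of -0.95 and -2.18 in AEG-1-WT against -1.17 and -1.68 in AEG-1-C75S.

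The RNA of the proteases that alpha-1 antitrypsin can inhibit was scarce or level. Of 6 such genes, Prss1 was not analysed here, and Elane, Prtn3 and Ctsg, the neutrophil proteases, had 0 to 9 UMIs per section. Klkb1, plasma prekallikrein, was at 186 and 191 CPM (log2 0.03), and F11, coagulation factor XI, at 112 and 101 CPM (-0.14). Neutrophil markers were also scarce. S100a8 and S100a9 summed with Ngp, Camp and Ltf to 5.16 CPM in AEG-1-WT compared with 10.6 CPM in AEG-1-C75S, and Ltf had no UMI. S100a9 was higher in AEG-1-C75S, with 144 and 302 UMIs (log2 1.09, 0.80 to 1.38). So was S100a8, with 72 and 137 UMIs (0.95, 0.53 to 1.38).

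Of 11 transcription factors known from hepatocyte promoters such as that of human SERPINA1, 0 differed at least 2-fold. Of all genes tested, 1.42% were at least 2-fold lower in AEG-1-C75S. The share at least 2-fold higher was not counted, so nothing is read from this count. The median log2 ratio of the 11 was 0.10. The most abundant were Cebpb at 350 and 375 CPM (0.10), Cebpa at 335 and 296 CPM (-0.18) and Hnf4a at 295 and 312 CPM (0.08). Onecut1, which encodes HNF6, came nearest to 2-fold, at 28.2 and 53.7 CPM (0.93, 0.83 to 1.03). These transcripts are counted over all cells of a spot, and their part in the levels of the paralogs was not tested.

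Alpha-1 antitrypsin is an acute phase protein in humans, so other acute phase genes were set beside it. Of 15 genes, 13 were in the tables, and Saa1 and Saa2 were not. Of the 13, 0 were at least 2-fold lower, 1 was at least 2-fold higher and the median log2 ratio was 0.04. Ratios lay above 0 for 8 genes and below 0 for 5, the lowest being Lcn2 at -0.45 and Saa4 at -0.40. The 1 at least 2-fold higher was Orm2, encoding an orosomucoid, at 39.1 and 87.2 CPM (1.16, 1.07 to 1.24). The fibrinogen chains were the most abundant and were higher in AEG-1-C75S, with Fgb at 8475 and 11709 CPM (0.47), Fga at 7566 and 11059 CPM (0.55) and Fgg at 4256 and 6087 CPM (0.52). Another list held 15 genes of folding, export and disposal in the endoplasmic reticulum, the route that misfolded alpha-1 antitrypsin takes. All their log2 ratios lay between -0.18 and 0.22. Hsp90b1, at 930 and 1081 CPM, Hspa5, at 528 and 585 CPM, and Canx, at 421 and 449 CPM, were the most abundant. The 10 abundant secreted proteins lay between -0.12 and 0.50, with a median of 0.09. The highest were Alb (-0.07), Apoa2 at 24381 and 30469 CPM (0.32) and Apoa1 at 21341 and 30253 CPM (0.50).

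Markers of other cell types also differed between the sections. The summed level of 5 Kupffer cell markers was 866 CPM in AEG-1-WT against 1159 CPM in AEG-1-C75S. Their log2 ratios were unlike, from 0.10 for Clec4f to 1.62 for Marco. The sum of 4 stellate cell markers was 551 and 703 CPM, and that of the cholangiocyte markers Spp1 and Epcam 114 and 84.9 CPM. For 3 red blood cell genes it was 439 and 293 CPM. The part of these cell types in the levels of the paralogs was not tested. The summed level of the 5 hepatocyte markers was 182563 and 186148 CPM. Their log2 ratios ran from -0.22 for Cps1 to 0.50 for Apoa1, with 3 below 0 and 2 above, so the sum hides unlike changes.

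The genes most like each paralog over the 10 bins of both sections were sought among 6886 other genes with at least 1000 UMIs, by the distance between log2 CPM profiles after each profile's mean was taken off. For Serpina1a they were Serpina1d, Cox5b and Selenop, at distances of 0.08 to 0.11, and for Serpina1d they were Cox5b, Serpina1a and Ndufb7, at 0.07 to 0.08. For Serpina1b they were Ctsb, Apoa5 and Pdcd4, at 0.10 to 0.13, and for Serpina1c Man2a1, Slc38a4 and F7, at 0.12 to 0.14. Each of these sets held genes with a like ratio between the sections, such as F7 at -0.47 beside Serpina1c. The distance takes in the ratio between the sections, which chose the family, and the 3 genes nearest to Serpina1e were also the 3 others with the lowest ratios at that minimum of UMIs. They were Usp2 at a distance of 1.20, Noct at 2.40 and Per2 at 2.54, with log2 ratios between the sections of -3.45, -1.99 and -1.97. All 3 are known as genes with a daily rhythm in liver. The distance from Serpina1e to the other paralogs was 4.79 to 5.54, and among those 4 it was 0.08 to 0.77.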

How the data were processed

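RNA was measured by Visium probes on fixed liver, 1 section per genotype. Space Ranger 2.0.1, with mm10 and the mouse probe set, gave the tables that the authors deposited, which hold raw UMI counts per gene and spot under tissue, not normalized. Their later steps in Seurat 4.3.0 are not in the tables. Spots with over 50000 UMIs were left out.

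UMIs were summed over spots, divided by the spots' total and scaled to CPM in python 3.11.15 (numpy 2.4.6, scipy 1.17.1, pandas 2.3.3). Sums carry exact Poisson intervals and shares and ratios exact binomial (Clopper-Pearson) ones, all at 95% and for counting error only. Differences of gradients use the Poisson variance of the 4 sums on the log scale. Ratios between sections were taken for genes with at least 50 UMIs. Sequences were read from RefSeq, using for each gene the transcript with the shortest coding sequence, and aligned with Biopython 1.88. Genes were named by rule: the paralogs, Serpina1f, list genes that differed at least 2-fold and the 3 most abundant of each list, the 3 nearest in pattern to each paralog, and neighbours that differed at least 1.5-fold or lay nearest. Values of Onecut1, Serpina6, Serpina10, Serpina12, Lcn2, Saa4, Cps1, the proteases and the neutrophil markers were added after they had been seen. The members, lists and markers were chosen with earlier results of these data known. Alternatives covered spot filters, depth, weights, the axis, minimums of UMIs and scalings, with TMM factors from edgeR 4.0.16 and SCTransform from Seurat 5.3.0 and sctransform 0.4.2 in R 4.3.3. The ratios and intervals were tested on simulated Poisson counts. These follow the model of the intervals and leave out the extra variation between spots, so they do not show how the intervals hold for these sections. Spot coordinates were not used here, and 1 gene and 1 motif of the lists are not reported here.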

Additional observations from a re-analysis of the deposited data

How the results depend on the processing

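No paired analysis was possible because each genotype had 1 section. The cause of the moves below was not tested. Serpina1e stayed below 0 under all 14 alternatives, with log2 ratios of -3.52 with equal weight per spot, -3.38 centred on the median gene, -3.39 without the 20 most abundant genes in the totals, -3.38 with TMM factors, -2.92 after SCTransform and -2.70 after log-normalization per spot. The other 8 values lay within the counting interval. Values after SCTransform and log-normalization, for every paralog and the family sum, are differences of logs taken after 1 was added. They are therefore not fold ratios on the scale of the other settings. The family sum stayed below 0, at -0.27 when thinned, -0.27 with equal weight, -0.20 centred on the median gene, -0.21 without the 20 most abundant genes, -0.19 with TMM factors, -0.29 relative to 6 secreted proteins, -0.26 after SCTransform, -0.27 after log-normalization and -0.24 on spots with at least 10000 UMIs, a setting chosen after seeing the data. Over the same alternatives Serpina1a ran from -0.11 to -0.02, Serpina1b from 0.01 to 0.10, Serpina1c from -0.47 to -0.38 and Serpina1d from -0.10 to 0.000711, where it reversed with TMM factors. The Serpina1e share was 9.53% in AEG-1-WT without the bile duct and connective tissue spots and 1.04% in AEG-1-C75S with equal weight per spot, and otherwise stayed within its interval. Its gradient in AEG-1-WT was 0.91 when thinned, 0.90 on the axis of 7 other markers, 0.94 with bins cut over both sections together, 1.29 with 10 bins and 0.84 with 3 bins. In AEG-1-C75S, under the same settings in that order, it was 0.88, 0.59, 0.79, 0.75 and 0.65. Its difference between the sections thus ran from 0.03 when thinned to 0.54 with 10 bins, beside 0.25. The thinned value rests on few UMIs and has a wide interval. The gradient of the family sum was 0.32 without the bile duct and connective tissue spots, 0.26 on the other axis, 0.27 with common bins, 0.36 with 10 bins and 0.24 with 3 bins in AEG-1-WT, and 0.13 when thinned, 0.12 on the other axis, 0.17 with common bins, 0.21 with 10 bins and 0.13 with 3 bins in AEG-1-C75S. With minimums of 10 and 200 UMIs in place of 50, 429 and 75 genes were at least 2-fold lower in AEG-1-C75S, in place of 170. Depth limits what can be said of single AEG-1-C75S spots, which held a median of 2 Serpina1e UMIs.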
